A study of Homo sapiens with 12 samples.

Results

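The genes described here are 36 genes of the response to amino acid shortage and to stress in the endoplasmic reticulum (ER), chosen by a list of symbols matched to the Ensembl identifiers of the deposited count table. All 36 were found among its 60649 identifiers, and all 36 passed the filter on low counts, with a lowest member count of 361 in any library. They form a serine and amino acid arm of 21 genes (9 regulators, 8 enzymes of amino acid and one-carbon metabolism, 4 transporters) and a folding arm of 15 genes (4 ER stress sensors and their effectors, 7 chaperones and folding factors, 4 genes of ER-associated degradation).

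RNA sequencing was applied to AC16 cells, an immortalized human line described as ventricular cardiomyocytes, given interferon alpha-2a, a type I interferon that is raised in lupus. Repeat cells received 1000 U/mL interferon for 24 h, were held 4 days without it and received it for a further 24 h. Recovery cells received 1 pulse of 24 h at the same dose and were held 5 days without interferon, acute cells were collected when a 24 h pulse ended, and vehicle cells received phosphate-buffered saline. Each group had 3 libraries, stated to be independent biological replicates. The labels place collection of repeat cells on day 7 although their stated times add to 6 days, and that of recovery cells on day 6. Every vehicle library carries a 24 h label, whereas the design text speaks of vehicle for matched intervals, so differences of repeat or recovery from vehicle or acute cells cannot be told apart from time in culture. The design text names DMEM/F-12 medium and the growth protocol an RPMI medium.

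ATF4 is a transcription factor whose mRNA is translated preferentially when the initiation factor eIF2 is phosphorylated by PERK, GCN2, PKR or HRI. It activates genes for serine, asparagine and proline synthesis, for amino acid uptake and for its own feedback, so its activity is read from its targets more than from its own mRNA. The unfolded protein response has parallel ER branches: ATF6 is cleaved to a transcription factor, IRE1 (the product of ERN1) splices XBP1 mRNA, and both raise chaperones, disulfide isomerases and the degradation machinery. Gene-level counts carry neither eIF2 phosphorylation nor XBP1 splicing.

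The sequence letters by which each branch is known to act are shown here for the members whose promoters hold them. RefSeq promoter windows (GRCh38.p14, 250 bases before to 50 bases after a start site) were matched for 33 of the 36 members, and PSPH, SHMT2 and PYCR1 are named only. Genes with several start sites had several windows, giving 32 in the serine and amino acid arm and 18 in the folding arm. Both strands were searched for the C/EBP-ATF response element TGATGNAA, bound by ATF4 with a C/EBP partner, the ER stress element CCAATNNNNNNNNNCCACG, bound by NF-Y with ATF6 or XBP1, the unfolded protein response element TGACGTG, and the interferon-stimulated response element (GAAA, any 2 bases, GAAA). No match of one motif overlapped a match of another. The C/EBP-ATF element was in 7 of 32 windows of the serine and amino acid arm (21.88%) and 1 of 18 of the folding arm (5.56%), against 3.62% of all 35116 promoters of this length. The ER stress element was in 4 of 18 windows of the folding arm (22.22%) and 0 of 32 of the other arm, against 0.08% of all promoters. TGACGTG was in 1 window of each arm (ALDH18A1 and HYOU1, against 1.97% of all promoters). The interferon element was in 1 of 32 windows of the serine and amino acid arm, of ATF5 (3.12%, against 3.57% of all promoters). A match is a description of these letters and not evidence of binding.

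The windows below carry the ER stress element in 4 genes of the folding arm that rose after each pulse, on the gene's own strand, 5′ to 3′, with the fixed letters of the element in capitals. HSP90B1 has a match starting 194 bases before the start site and another, on the opposite strand, 89 bases before it. In CRELD2 the match is on the opposite strand, so it reads CGTGG and then ATTGG here. The PDIA6 and XBP1 matches begin 86 and 52 bases before the start site. Of the 15 folding genes 11 rose after both pulses. HYOU1, PDIA4, SDF2L1, MANF, ERN1, EIF2AK3 and SYVN1 are among these and have no ER stress element in their windows.
HSP90B1 chr12:103930160-103930459 plus strand: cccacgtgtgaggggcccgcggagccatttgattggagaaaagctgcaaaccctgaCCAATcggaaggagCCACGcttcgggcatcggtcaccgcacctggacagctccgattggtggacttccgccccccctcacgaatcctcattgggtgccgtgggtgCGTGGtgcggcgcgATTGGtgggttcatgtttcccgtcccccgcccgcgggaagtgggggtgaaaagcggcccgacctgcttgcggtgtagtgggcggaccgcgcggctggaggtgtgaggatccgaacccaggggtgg
CRELD2 chr22:49918384-49918683 plus strand: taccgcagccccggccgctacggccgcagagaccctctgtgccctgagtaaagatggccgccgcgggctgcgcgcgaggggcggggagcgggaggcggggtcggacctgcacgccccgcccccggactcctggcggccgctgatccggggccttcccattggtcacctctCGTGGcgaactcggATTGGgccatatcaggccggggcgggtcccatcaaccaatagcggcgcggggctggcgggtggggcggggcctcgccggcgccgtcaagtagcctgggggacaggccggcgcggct
PDIA6 chr2:10812736-10813035 minus strand: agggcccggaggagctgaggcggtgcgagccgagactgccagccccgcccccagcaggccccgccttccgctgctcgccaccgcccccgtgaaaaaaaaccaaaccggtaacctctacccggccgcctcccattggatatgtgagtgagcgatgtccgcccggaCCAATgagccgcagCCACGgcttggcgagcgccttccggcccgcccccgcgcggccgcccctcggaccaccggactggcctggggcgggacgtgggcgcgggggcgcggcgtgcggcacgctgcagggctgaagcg
XBP1 chr22:28800520-28800819 minus strand: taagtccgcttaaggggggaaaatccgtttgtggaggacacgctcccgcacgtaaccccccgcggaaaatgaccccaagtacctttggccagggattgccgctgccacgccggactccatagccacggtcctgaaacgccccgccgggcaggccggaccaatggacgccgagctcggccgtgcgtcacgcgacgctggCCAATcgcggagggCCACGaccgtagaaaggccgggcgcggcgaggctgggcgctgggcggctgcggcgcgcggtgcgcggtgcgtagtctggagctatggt

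The next windows carry the C/EBP-ATF element in ASNS (68 bases before the start site) and CEBPG (42 bases before it), both lower after the first pulse, and the interferon element in ATF5, which was higher. The C/EBP-ATF element was also in windows of SLC1A5 and SLC7A1, lower after that pulse, of SLC3A2, higher after it, and of ATF3, CHAC1 and, in the folding arm, HERPUD1, none of them called after it. The ATF5 window holds 3 matches, of which those starting 91 and 85 bases before the start site overlap each other, and the other starts 8 bases after it. ASNS and ATF5 were called after the first pulse and not after the second. The capitals again mark the fixed letters.
ASNS chr7:97872359-97872658 minus strand: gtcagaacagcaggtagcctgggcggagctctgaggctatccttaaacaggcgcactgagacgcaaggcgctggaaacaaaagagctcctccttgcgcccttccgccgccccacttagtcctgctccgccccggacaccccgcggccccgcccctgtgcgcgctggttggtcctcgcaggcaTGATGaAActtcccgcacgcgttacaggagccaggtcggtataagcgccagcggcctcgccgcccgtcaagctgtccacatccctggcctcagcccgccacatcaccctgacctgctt
CEBPG chr19:33373863-33374162 plus strand: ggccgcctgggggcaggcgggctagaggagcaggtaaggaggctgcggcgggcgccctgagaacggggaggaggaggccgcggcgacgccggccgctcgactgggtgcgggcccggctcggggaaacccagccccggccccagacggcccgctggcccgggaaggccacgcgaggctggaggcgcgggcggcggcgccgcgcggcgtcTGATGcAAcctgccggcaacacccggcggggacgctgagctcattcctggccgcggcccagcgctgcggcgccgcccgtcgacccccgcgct
ATF5 chr19:49928656-49928955 plus strand: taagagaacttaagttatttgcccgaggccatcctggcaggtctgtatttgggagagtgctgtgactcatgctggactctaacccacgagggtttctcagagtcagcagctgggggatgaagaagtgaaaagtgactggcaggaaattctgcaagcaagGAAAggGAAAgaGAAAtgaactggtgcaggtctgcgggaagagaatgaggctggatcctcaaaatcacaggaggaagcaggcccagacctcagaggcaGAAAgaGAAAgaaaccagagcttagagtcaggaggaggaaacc

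The 12 libraries held 39.9 to 62.3 M estimated counts each (M, 1000000), and 18119 genes passed the filter. On the first principal component of log CPM (counts per M), 40% of the variance, the repeat and acute libraries lay at 27.6 to 31.9 and the recovery and vehicle libraries at -36.5 to -25.7. Of 16 cardiomyocyte markers 14 were below 1 CPM in every library, among them TNNT2, MYH6 and MYH7, with MYL7 at 0 throughout. The other markers were GATA4, at 12.253 to 17.056 CPM, and ACTN2, at 1.323 to 3.895 CPM. The labelled cell type was thus not matched by most of these markers. All 8 fibroblast and stromal markers were above 1 CPM in every library, led by COL1A1. Their summed level was 5149.16 to 5400.13 CPM in repeat, 6503.75 to 6578.02 CPM in recovery, 5859.79 to 6061.36 CPM in acute and 7509.74 to 7780.8 CPM in vehicle libraries. The summed level of 4 macrophage markers, nearly all of it CD68, was 235.32 to 245.56 CPM in repeat, 115.14 to 125.15 CPM in recovery, 224.26 to 238.01 CPM in acute and 96.83 to 98.33 CPM in vehicle libraries. CD14 was below 1 CPM in every library, and CSF1R and PTPRC reached at most 1.553 and 1.412 CPM. Both sums move with the groups, and their part in the results was not tested.

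At the end of the first pulse the arms moved in different directions. In the serine and amino acid arm 13 of 21 genes were lower and 5 higher in acute than in vehicle libraries, with a median log2 fold change of -0.135. In the folding arm 12 of 15 were higher and 1 lower, with a median of 0.173. Over all 18119 genes the median was 0.0, and 22.3% were called higher and 21.5% lower (edgeR, Benjamini-Hochberg adjusted p under 0.05). The changes were small: across all comparisons no member changed by more than 1.44-fold. In these bulk samples fewer cells of a type and less RNA per cell cannot be told apart.

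**Figure D1:**
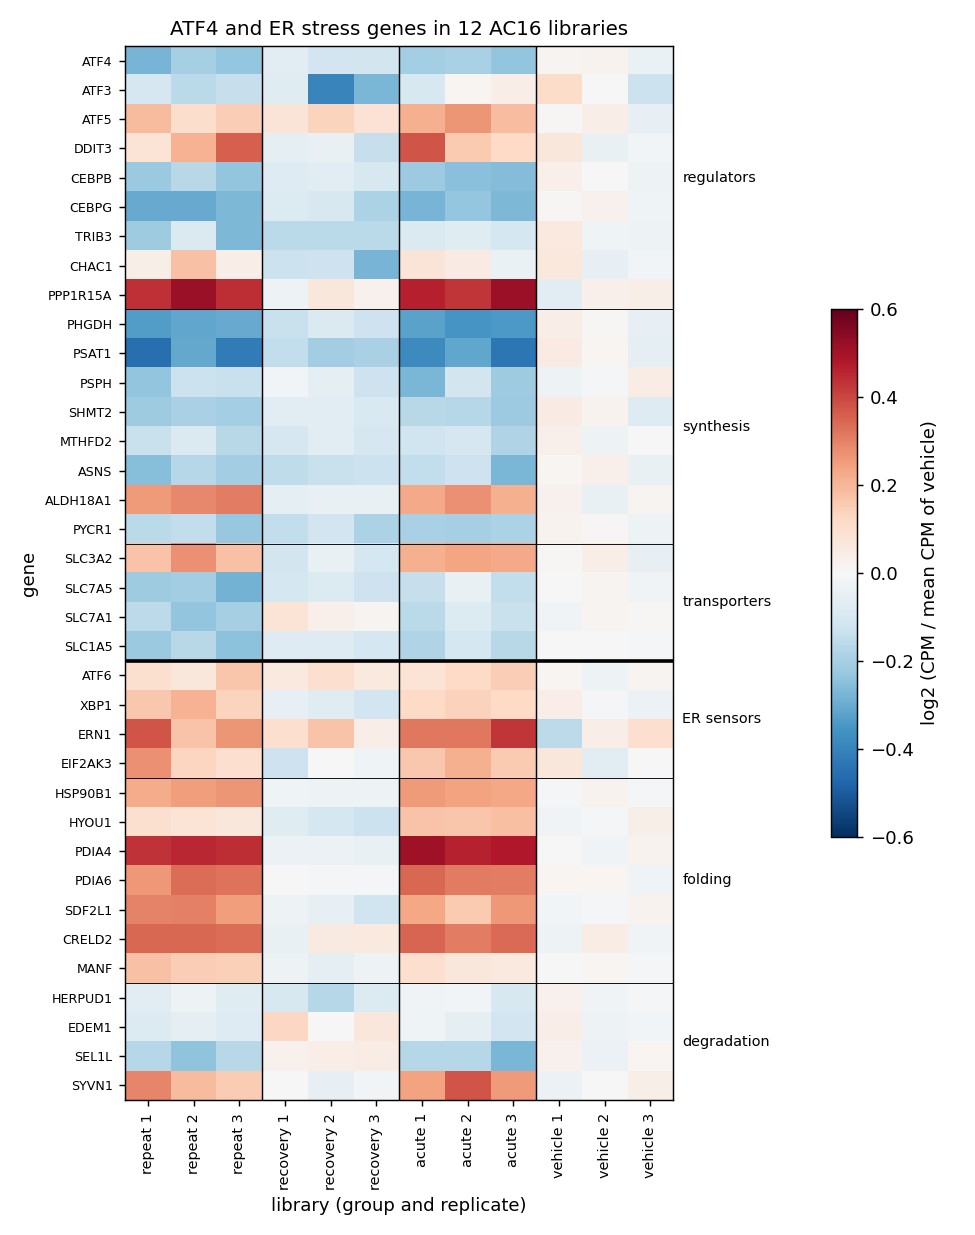
Level of the 36 members (y axis) in each of the 12 libraries (x axis), coloured by the log2 ratio of CPM to the mean of the vehicle libraries; horizontal lines separate the gene groups and the thick line the arms. The repeat and acute columns are blue for most serine and amino acid genes and red for the chaperones, PPP1R15A, ALDH18A1 and SLC3A2.

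Among the regulators, 3 rose (PPP1R15A, DDIT3, ATF5) and 3 fell (ATF4, CEBPB, CEBPG). ATF4 had 318.1, 320.0 and 310.9 CPM in acute libraries, against 370.2, 371.7 and 356.4 CPM in vehicle libraries. Its log2 fold change was -0.21 ± 0.023 (SE; edgeR adjusted p = 1.77e-08), and the groups did not overlap. With limma on log2(TPM + 1) it was -0.17 and not called (adjusted p = 0.0519). PPP1R15A encodes GADD34, which directs dephosphorylation of eIF2 and is induced by ATF4 and DDIT3. It had 148.2, 144.6 and 152.9 CPM in acute libraries, against 102.3, 109.7 and 110.0 CPM in vehicle libraries. That is a log2 fold change of 0.47 ± 0.032 (edgeR adjusted p = 3.28e-11), the largest rise of the arm in this comparison, with every acute library above every vehicle library. DDIT3 encodes CHOP, a pro-apoptotic factor of prolonged ER stress. It had 13.4, 11.5 and 11.2 CPM in acute libraries, against 10.8, 10.0 and 10.2 CPM in vehicle libraries (log2 fold change 0.22 ± 0.073, edgeR adjusted p = 0.0142). The groups did not overlap, but the adjusted p was 0.186 without acute replicate 1 and 0.0607 without vehicle replicate 2. CEBPG, a heterodimer partner of ATF4, had 35.1, 36.3 and 35.3 CPM in acute libraries, against 42.8, 43.4 and 41.8 CPM in vehicle libraries. It fell by 0.26 on the log2 scale (SE 0.035, edgeR adjusted p = 4.94e-07), without overlap. CEBPB, another C/EBP factor, changed by -0.24 ± 0.026 and ATF5, a relative of ATF4, by 0.22 ± 0.037. CHAC1, a glutathione-degrading enzyme that is a sensitive ATF4 target, had 9.99, 9.79 and 9.22 CPM in acute libraries, against 9.91, 9.14 and 9.35 CPM in vehicle libraries. These overlapped (log2 fold change 0.03 ± 0.067, edgeR adjusted p = 0.769). ATF3, a stress-induced repressor, and TRIB3, a pseudokinase that restrains ATF4, were not called either, with log2 fold changes of -0.02 and -0.09. The ATF3 groups overlapped and the TRIB3 groups did not. With upper quartile scaling TRIB3 was called lower (log2 fold change -0.12, edgeR adjusted p = 0.0418).

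Of the 8 enzymes, 7 fell and 1 rose. PHGDH (chr1:119648411-119744218, plus strand, GENCODE annotation on GRCh38) encodes phosphoglycerate dehydrogenase, which starts serine synthesis from glycolysis. It had 191.3, 186.7 and 187.9 CPM in acute libraries, against 245.8, 239.9 and 230.6 CPM in vehicle libraries, a gap far wider than the spread within either group. Its log2 fold change was -0.34 ± 0.024 (edgeR adjusted p = 1.85e-12). PSAT1 (chr9:78297125-78330093, plus strand), the aminotransferase that acts next, had 79.1, 83.1 and 76.2 CPM in acute libraries, against 106.5, 103.7 and 98.8 CPM in vehicle libraries. Its change of -0.38 ± 0.039 (edgeR adjusted p = 2.51e-07) was the lowest of all 36 members, and the groups did not overlap. PSPH, the phosphatase that releases serine, changed by -0.20 ± 0.045. SHMT2 and MTHFD2, which carry the serine carbon into mitochondrial folate metabolism, changed by -0.19 ± 0.026 and -0.13 ± 0.025. ASNS, which makes asparagine, changed by -0.18 ± 0.039 and PYCR1, the last step of proline synthesis, by -0.19 ± 0.028. The exception was ALDH18A1 (chr10:95605941-95656711, minus strand), which makes the precursor shared by proline and ornithine. It had 104.0, 107.1 and 102.9 CPM in acute libraries, against 90.4, 86.1 and 89.6 CPM in vehicle libraries, without overlap (log2 fold change 0.24 ± 0.026, edgeR adjusted p = 1.22e-08). ALDH18A1 and PYCR1, both of proline synthesis, thus moved in opposite directions.

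Among the 4 transporters, SLC3A2 rose and the other 3 fell. SLC3A2 (chr11:62856004-62888880, plus strand) encodes the heavy chain that carries SLC7A5 and related light chains to the cell surface. It had 225.1, 228.9 and 227.3 CPM in acute libraries, against 195.5, 199.7 and 188.1 CPM in vehicle libraries (log2 fold change 0.22 ± 0.028, edgeR adjusted p = 2.41e-07), without overlap. SLC7A5, the leucine-transporting light chain that pairs with it, changed by -0.11 ± 0.025 (edgeR adjusted p = 0.000837). SLC7A1, the arginine and lysine transporter, changed by -0.13 ± 0.025, and SLC1A5, the glutamine exchanger, by -0.15 ± 0.023.

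In the folding arm all 4 genes of the ER stress sensors and their effectors rose. ERN1 had 13.7, 13.7 and 14.8 CPM in acute libraries, against 9.86, 11.3 and 11.8 CPM in vehicle libraries (log2 fold change 0.36 ± 0.067, edgeR adjusted p = 6.65e-05), without overlap. XBP1 had 129.0, 130.8 and 129.1 CPM in acute libraries, against 122.3, 118.3 and 116.2 CPM in vehicle libraries (log2 fold change 0.12 ± 0.026, edgeR adjusted p = 0.000275). ATF6 had 84.6, 87.0 and 88.5 CPM in acute libraries, against 80.6, 78.3 and 81.0 CPM in vehicle libraries (log2 fold change 0.11 ± 0.029, edgeR adjusted p = 0.0015). Neither XBP1 nor ATF6 overlapped between the groups, at 1.09 and 1.08 times the vehicle level. EIF2AK3, which encodes PERK, the ER kinase of eIF2, changed by 0.17 ± 0.047.

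All 7 chaperones and folding factors rose. PDIA4 (chr7:149003062-149028662, minus strand), a disulfide isomerase, had 252.4, 244.6 and 247.3 CPM in acute libraries, against 177.2, 174.8 and 180.1 CPM in vehicle libraries. Its log2 fold change of 0.48 ± 0.021 (edgeR adjusted p = 4.49e-17) was the highest of all 36 members, and the lowest acute library was far above the highest vehicle library. CRELD2, a secreted ER stress-inducible disulfide isomerase, had 69.0, 66.9 and 68.5 CPM in acute libraries, against 53.0, 55.8 and 53.4 CPM in vehicle libraries (log2 fold change 0.34 ± 0.031, edgeR adjusted p = 5.45e-10). PDIA6, an isomerase that also binds the ER sensors, had 309.4, 302.3 and 301.5 CPM in acute libraries, against 245.1, 245.2 and 240.2 CPM in vehicle libraries (log2 fold change 0.32 ± 0.022, edgeR adjusted p = 1.49e-12). CRELD2 and PDIA6 likewise did not overlap between the groups. SDF2L1, a partner of the BiP chaperone cycle, had 40.6, 38.6 and 41.4 CPM in acute libraries, against 34.2, 34.4 and 35.1 CPM in vehicle libraries (log2 fold change 0.22 ± 0.036, edgeR adjusted p = 1.12e-05). HSP90B1, which encodes GRP94, the ER form of HSP90, changed by 0.24 ± 0.019, HYOU1, an exchange factor for BiP, by 0.17 ± 0.022, and MANF, a secreted survival factor retained in the ER, by 0.08 ± 0.026. The MANF call was lost without acute replicate 1 (adjusted p = 0.0814) or vehicle replicate 3 (adjusted p = 0.0564).

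The degradation genes did not move as a block. SYVN1, the HRD1 ubiquitin ligase, had 46.2, 50.8 and 46.7 CPM in acute libraries, against 38.1, 39.2 and 40.0 CPM in vehicle libraries (log2 fold change 0.29 ± 0.040, edgeR adjusted p = 5.76e-07), without overlap. SEL1L, the scaffold that holds SYVN1, fell by 0.20 on the log2 scale (SE 0.029, edgeR adjusted p = 1.49e-06). HERPUD1, a membrane adaptor of the ligase, changed by -0.04 ± 0.031 and EDEM1, a lectin that selects misfolded glycoproteins, by -0.06 ± 0.037, neither called. The deposited counts and TPM (transcripts per M) imply gene lengths that vary between libraries. With that length as an offset, 25 of the 31 calls of this comparison were kept, and those of DDIT3, SLC1A5, XBP1, ERN1, MANF and SEL1L were not. With limma on TPM 23 were kept, and those of ATF4, DDIT3, PSPH, ASNS, SLC1A5, ERN1, MANF and SEL1L were not.

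**Figure D2:**
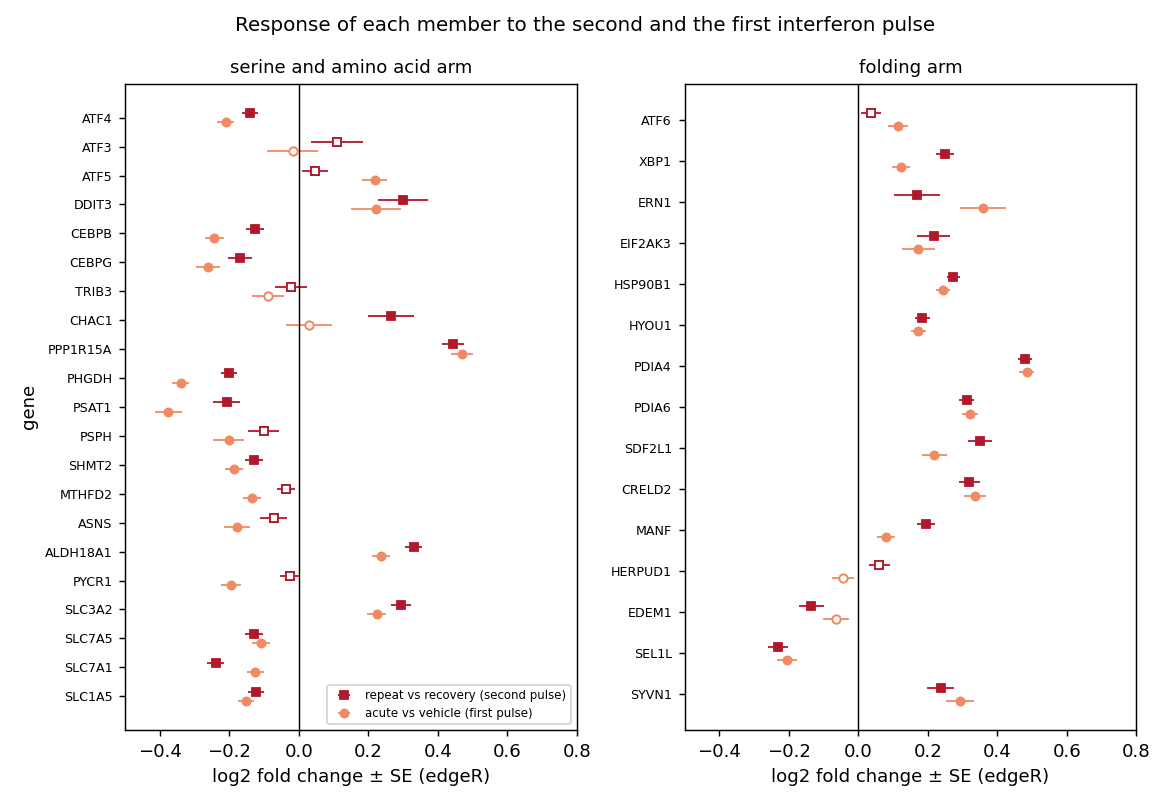
Log2 fold change ± SE from edgeR (x axis) of each member (y axis) for the second pulse (repeat vs recovery, squares) and the first pulse (acute vs vehicle, circles), with the serine and amino acid arm left and the folding arm right; filled symbols had an adjusted p under 0.05. For 34 of 36 genes both symbols lie on the same side of 0.

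After 5 days without interferon the folding arm was near its vehicle level. In recovery against vehicle libraries 0 of 15 folding genes were called higher and 2 lower (HYOU1 and HERPUD1), and the median log2 fold change was -0.028. In the serine and amino acid arm 0 of 21 were higher and 10 lower, with a median of -0.091. Over all genes 3.03% were called higher and 2.91% lower, with a median of -0.001. For the counts of 0, the edgeR test gave 1 gene of each arm higher at an unadjusted p under 0.05, and DESeq2 called 0. The 10 genes were ATF4, CEBPG, TRIB3, PHGDH, PSAT1, MTHFD2, ASNS, PYCR1, SLC7A5 and SLC1A5.

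The recovery levels of PHGDH were 217.7, 225.0 and 219.0 CPM, against 245.8, 239.9 and 230.6 CPM in vehicle libraries. These did not overlap, and the log2 fold change was -0.11 ± 0.024 (edgeR adjusted p = 0.00196) where the first pulse itself had given -0.34. PSAT1 had 92.9, 89.2 and 90.0 CPM in recovery libraries, against 106.5, 103.7 and 98.8 CPM in vehicle libraries (log2 fold change -0.18 ± 0.038, edgeR adjusted p = 0.00572). ATF4 had 350.4, 338.5 and 338.8 CPM in recovery libraries, against 370.2, 371.7 and 356.4 CPM in vehicle libraries (log2 fold change -0.10 ± 0.023, edgeR adjusted p = 0.0101). CEBPG had 40.2, 39.8 and 37.4 CPM in recovery libraries, against 42.8, 43.4 and 41.8 CPM in vehicle libraries (log2 fold change -0.12 ± 0.035, edgeR adjusted p = 0.029). PSAT1, ATF4 and CEBPG did not overlap between the groups either. The other 8 called members changed by between -0.16 (TRIB3) and -0.09 (MTHFD2, SLC1A5), with PYCR1 at -0.15, ASNS at -0.14, HERPUD1 at -0.12, and SLC7A5 and HYOU1 at -0.10. PPP1R15A had 105.1, 112.4 and 109.4 CPM in recovery libraries, against 102.3, 109.7 and 110.0 CPM in vehicle libraries, and PDIA4 had 173.3, 173.3 and 172.1 CPM in recovery libraries, against 177.2, 174.8 and 180.1 CPM in vehicle libraries. Neither of these was called (log2 fold changes 0.02 ± 0.032 and -0.04 ± 0.021).

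Most of these late calls were lost on leaving out 1 library or on changing the scale of the values. The estimates moved less: ATF4 was at -0.09 in each of the 4 fits without 1 library that lost its call. With the length offset ATF4 was at -0.13 (SE 0.054) and MTHFD2 at -0.06 (SE 0.034), neither called. The number of members called lower was 4 without vehicle replicate 1, 6 without vehicle replicate 2, 7 without recovery replicate 2 and 5 without recovery replicate 3, against 12 with all libraries. PHGDH, PSAT1, PYCR1 and HYOU1 were the 4 called whichever library was left out. With the length offset, or with limma on TPM, 1 of the 12 stayed called, PHGDH.

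**Figure D3:**
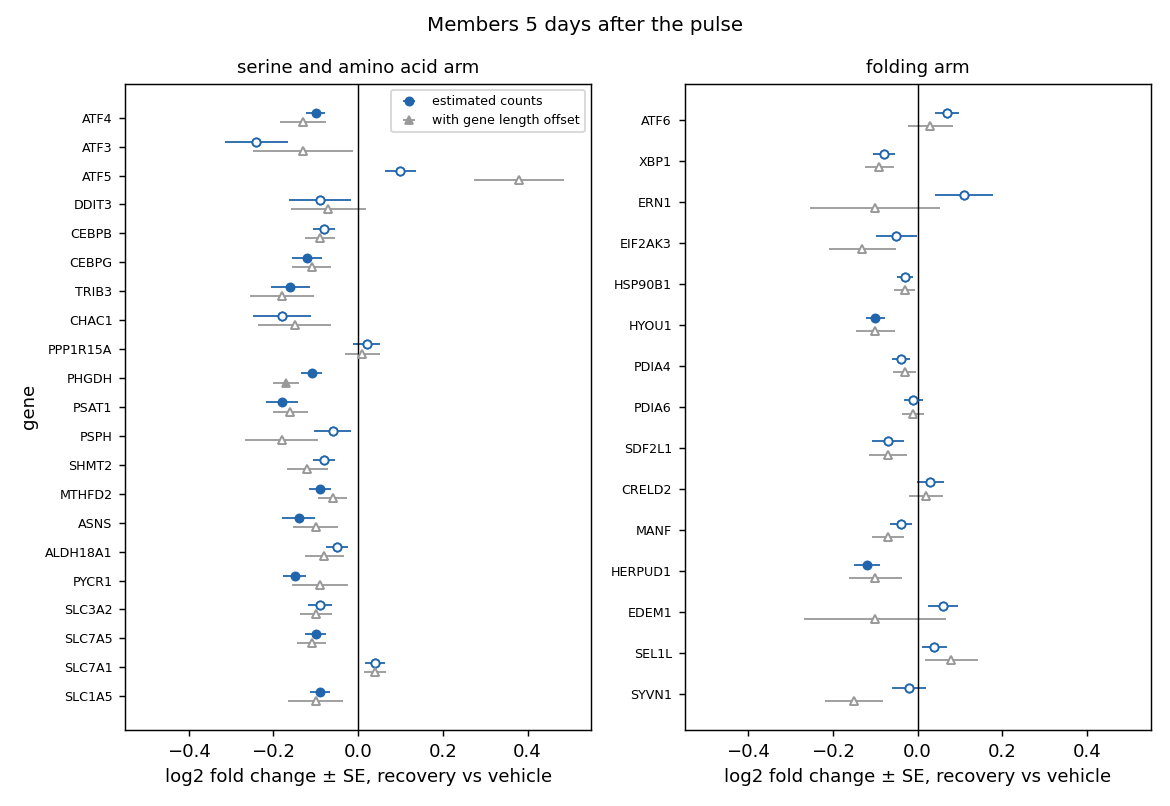
Log2 fold change ± SE of recovery vs vehicle (x axis) for each member (y axis), from the estimated counts (circles) and from the same fit with gene length as an offset (triangles); filled symbols had an adjusted p under 0.05. Serine and amino acid genes lie mostly left of 0 and folding genes around 0, and with the offset PHGDH is the filled triangle.

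Set against the end of the pulse, recovery libraries had 11 members higher and 18 lower than acute libraries (20.4% and 20.7% of all genes). In the serine and amino acid arm 9 were higher and 7 lower, and in the folding arm 2 were higher and 11 lower. PDIA4 showed the widest difference of the members, with a log2 fold change of -0.52 ± 0.021 (edgeR adjusted p = 1.03e-17), followed by PPP1R15A at -0.45 ± 0.032. Of the enzymes, PHGDH was higher in recovery by 0.23 ± 0.024 and PSAT1 by 0.19 ± 0.039, whereas ASNS, MTHFD2 and PYCR1 were not called (log2 fold changes 0.04, 0.04 and 0.05). The folding genes higher in recovery than in acute cells were SEL1L (0.24 ± 0.030) and EDEM1 (0.13 ± 0.037). The EDEM1 value was -0.21 both with the length offset and with limma on TPM, uncalled in both, and its call was lost without recovery replicate 1 (adjusted p = 0.0558).

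The second pulse was measured as repeat against recovery libraries, which share none with the first comparison. In the serine and amino acid arm 5 of 21 genes were higher and 9 lower, and in the folding arm 11 of 15 were higher and 2 lower (21.1% and 20.5% of all genes). The medians were -0.072 and 0.217, against 0.0 over all genes. Over the 36 members 15 were higher and 10 lower after both pulses, and 0 were called in opposite directions. Of all 18119 genes 17.1% were higher after both, 16.7% lower after both and 0.0552% called in opposite directions. Across the 36 genes, which are not independent of each other, the first and second responses had a Pearson r of 0.91, and across all genes it was 0.66. The members had at least 361 counts in every library, and the full set includes genes with fewer, so the sets are not matched for level. Called after the first pulse and not the second were ATF5, PSPH, MTHFD2, ASNS, PYCR1 and ATF6, and the reverse held for CHAC1 and EDEM1. ATF3, TRIB3 and HERPUD1 were called after neither.

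PPP1R15A again led the regulators, with 145.2, 153.5 and 146.0 CPM in repeat libraries, against 105.1, 112.4 and 109.4 CPM in recovery libraries (log2 fold change 0.44 ± 0.032, edgeR adjusted p = 8.81e-11). DDIT3 had 10.9, 11.9 and 13.2 CPM in repeat libraries, against 9.88, 10.0 and 9.37 CPM in recovery libraries (log2 fold change 0.30 ± 0.072, edgeR adjusted p = 0.0013). CHAC1 had 9.7, 10.7 and 9.75 CPM in repeat libraries, against 8.65, 8.7 and 7.81 CPM in recovery libraries (log2 fold change 0.27 ± 0.067, edgeR adjusted p = 0.00178). None of these 3 genes overlapped between the groups. CHAC1 was not called between repeat and acute libraries (log2 fold change 0.06 ± 0.066, edgeR adjusted p = 0.729). ATF4 had 302.2, 318.6 and 311.9 CPM in repeat libraries, against 350.4, 338.5 and 338.8 CPM in recovery libraries (log2 fold change -0.14 ± 0.023, edgeR adjusted p = 1.5e-05). CEBPG had 34.6, 34.5 and 35.3 CPM in repeat libraries, against 40.2, 39.8 and 37.4 CPM in recovery libraries (log2 fold change -0.17 ± 0.035, edgeR adjusted p = 0.000235). Both were lower in every repeat library than in any recovery library.

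Of the enzymes, 3 fell (PHGDH, PSAT1, SHMT2) and ALDH18A1 rose. PHGDH had 189.4, 192.5 and 193.9 CPM in repeat libraries, against 217.7, 225.0 and 219.0 CPM in recovery libraries (log2 fold change -0.20 ± 0.024, edgeR adjusted p = 5.75e-08). PSAT1 had 75.4, 83.2 and 76.9 CPM in repeat libraries, against 92.9, 89.2 and 90.0 CPM in recovery libraries (log2 fold change -0.21 ± 0.038, edgeR adjusted p = 0.000251). ALDH18A1 had 106.0, 108.2 and 109.8 CPM in repeat libraries, against 85.4, 86.1 and 86.1 CPM in recovery libraries (log2 fold change 0.33 ± 0.026, edgeR adjusted p = 1.8e-11). The groups did not overlap for any of the 3. Among the transporters, SLC3A2 had 218.8, 235.1 and 219.6 CPM in repeat libraries, against 180.3, 188.7 and 180.6 CPM in recovery libraries (log2 fold change 0.29 ± 0.028, edgeR adjusted p = 2.69e-09). SLC7A1, SLC7A5 and SLC1A5 fell, by 0.24, 0.13 and 0.12 on the log2 scale.

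All 7 chaperones and folding factors rose again. PDIA4 had 239.8, 242.6 and 240.9 CPM in repeat libraries, against 173.3, 173.3 and 172.1 CPM in recovery libraries (log2 fold change 0.48 ± 0.021, edgeR adjusted p = 6.24e-17). SDF2L1 had 42.5, 42.6 and 41.2 CPM in repeat libraries, against 33.9, 33.4 and 31.9 CPM in recovery libraries (log2 fold change 0.35 ± 0.036, edgeR adjusted p = 4.06e-09). CRELD2 had 68.8, 68.8 and 68.3 CPM in repeat libraries, against 52.4, 56.1 and 56.4 CPM in recovery libraries (log2 fold change 0.32 ± 0.031, edgeR adjusted p = 1.27e-09). In each of these genes the repeat libraries lay close together and above all recovery libraries. PDIA6 had 291.2, 307.5 and 305.0 CPM in repeat libraries, against 244.0, 242.1 and 241.7 CPM in recovery libraries (log2 fold change 0.31 ± 0.022, edgeR adjusted p = 3.11e-12). HSP90B1 changed by 0.27 ± 0.019, MANF by 0.20 ± 0.025 and HYOU1 by 0.18 ± 0.022. The HYOU1 call was lost with the length offset (0.11, adjusted p = 0.102) and with limma on TPM (0.13, adjusted p = 0.0891).

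Of the sensors and their effectors, XBP1 had 133.1, 137.6 and 130.5 CPM in repeat libraries, against 115.0, 113.2 and 109.7 CPM in recovery libraries (log2 fold change 0.25 ± 0.026, edgeR adjusted p = 6.02e-09), without overlap. EIF2AK3 changed by 0.22 ± 0.047. ATF6 had 85.4, 83.9 and 89.7 CPM in repeat libraries, against 83.4, 85.7 and 83.3 CPM in recovery libraries, which overlapped (log2 fold change 0.04 ± 0.028, edgeR adjusted p = 0.334). ERN1 had 14.3, 12.4 and 13.2 CPM in repeat libraries, against 11.8, 12.4 and 11.3 CPM in recovery libraries (log2 fold change 0.17 ± 0.066, edgeR adjusted p = 0.042). That call did not hold: leaving out vehicle replicate 2, acute replicate 2, recovery replicate 1, recovery replicate 3, repeat replicate 1 or repeat replicate 3 gave an adjusted p of 0.0518, 0.0516, 0.0982, 0.172, 0.231 or 0.0774. SYVN1 had 47.9, 44.6 and 43.5 CPM in repeat libraries, against 39.0, 37.8 and 38.6 CPM in recovery libraries (log2 fold change 0.24 ± 0.040, edgeR adjusted p = 1.47e-05). SEL1L and EDEM1 fell, by 0.23 and 0.14 on the log2 scale. With the length offset 19 of the 27 calls of this comparison were kept, and those of DDIT3, SHMT2, SLC1A5, ERN1, HYOU1, EDEM1, SEL1L and SYVN1 were not. With it SEL1L was at -0.13 (adjusted p = 0.166), EDEM1 at -0.06 (adjusted p = 0.854) and SYVN1 at 0.20 (adjusted p = 0.0566). ATF5 was called lower with the offset (log2 fold change -0.40, adjusted p = 0.0193) where the counts gave 0.05 ± 0.036 uncalled.

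**Figure D4:**
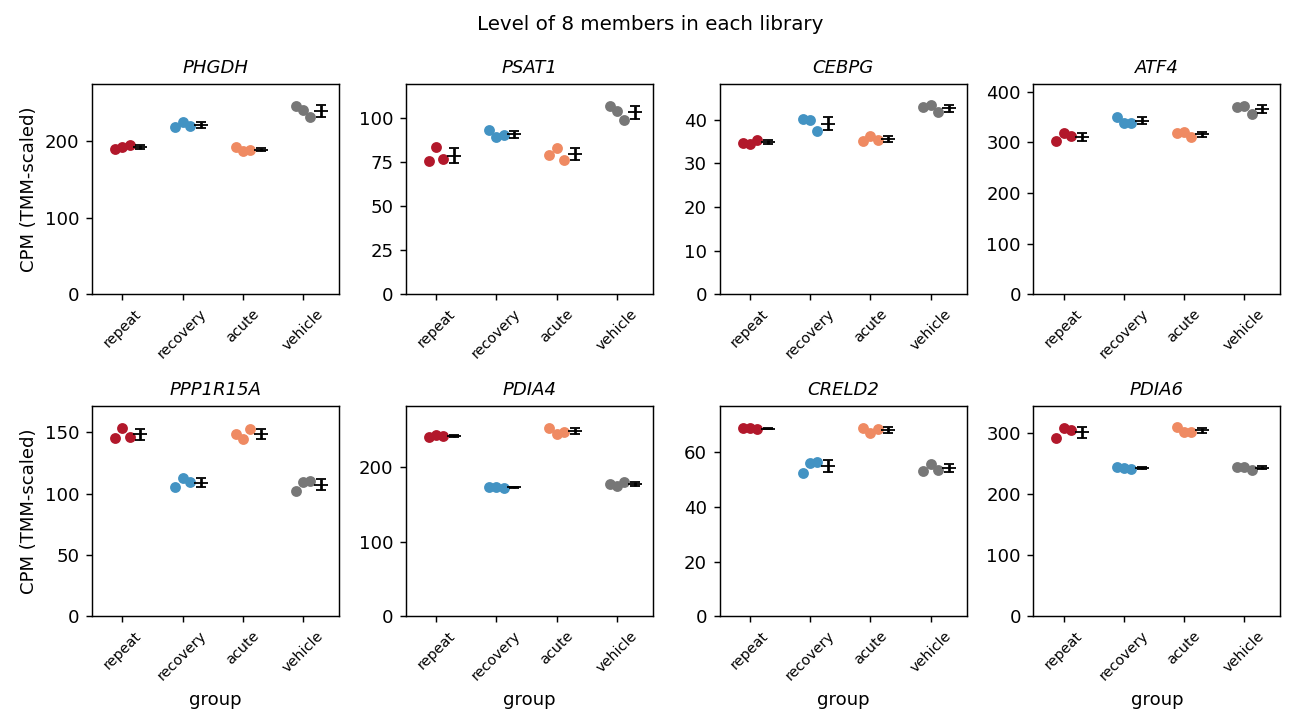
Level in CPM (y axis, starting at 0) of 8 members in the repeat, recovery, acute and vehicle groups (x axis); points are libraries and the bars beside them the mean ± SD of 3. In the upper row (PHGDH, PSAT1, CEBPG, ATF4) the repeat and acute groups lie lowest, and in the lower row (PPP1R15A, PDIA4, CRELD2, PDIA6) they lie highest.

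The end of the second pulse differed little from the end of the first. Against acute libraries 0 members were called higher and 2 lower in repeat libraries (1.77% and 2.43% of all genes), and log2 fold changes of the 36 lay between -0.12 and 0.08. For the count of 0, 1 member was higher at an unadjusted p under 0.05 in edgeR, and DESeq2 called 0. The genes called lower, picked out after their values were seen, were SLC7A5 and HYOU1. SLC7A5 had 599.0, 601.5 and 570.5 CPM in repeat libraries, against 631.3, 673.2 and 625.6 CPM in acute libraries (log2 fold change -0.12 ± 0.025, edgeR adjusted p = 0.00544). HYOU1 had 207.1, 204.6 and 202.7 CPM in repeat libraries, against 217.8, 217.4 and 219.5 CPM in acute libraries (log2 fold change -0.09 ± 0.022, edgeR adjusted p = 0.0159). Neither overlapped, but the SLC7A5 adjusted p was 0.0555 without acute replicate 2, and that of HYOU1 was 0.0807 without acute replicate 3 and 0.074 without repeat replicate 3. Neither was called with the length offset.

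Against vehicle libraries, which also serve the first comparison, repeat libraries had 17 members higher and 15 lower (23.4% and 22.9% of all genes). The serine and amino acid arm had 5 higher and 14 lower, and the folding arm 12 higher and 1 lower. PSAT1 had the lowest value, -0.39 ± 0.038, and PPP1R15A the highest, 0.47 ± 0.032, with PDIA4 at 0.44 ± 0.021. ERN1 (0.28 ± 0.066) and ATF5 (0.15 ± 0.036) were called higher here but gave -0.15 and -0.01 with the length offset, uncalled.

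The difference between the second and the first response was tested in the same fit. As labelled, the second response was measured in cells longer in culture than the first. A difference between responses therefore cannot be told apart from time in culture. Over all genes 0.221% were called with a positive and 0.43% with a negative difference, and of the members 2 were positive and 0 negative. At an unadjusted p under 0.05, edgeR gave 12 members positive and 2 negative, and DESeq2 called 2 positive and 1 negative. In the serine and amino acid arm 17 of 21 differences were positive (median 0.092), and in the folding arm 7 of 15 (median -0.005). The 2 members called positive by edgeR, again picked out after their values were seen, were PHGDH (0.14 ± 0.034, edgeR adjusted p = 0.0467) and PYCR1 (0.17 ± 0.040, edgeR adjusted p = 0.0438). PHGDH changed by -0.20 after the second pulse and -0.34 after the first. PYCR1 had 77.4, 78.2 and 73.9 CPM in repeat libraries, against 78.2, 79.9 and 75.8 CPM in recovery libraries, and 75.5, 75.3 and 75.8 CPM in acute libraries, against 87.9, 86.8 and 84.7 CPM in vehicle libraries. PYCR1 was lower in acute than in vehicle libraries, and lower in recovery than in vehicle libraries by 0.15 on the log2 scale. Recovery cells, held 5 days without interferon, stand in for cells before the second pulse, which repeat cells received after 4 days. Neither PHGDH nor PYCR1 was called with the length offset (adjusted p = 0.398 and 0.859). Both edgeR calls lay close to the threshold and were lost on leaving out most single libraries. In the fits that lost them the differences were 0.12 to 0.15 for PHGDH and 0.15 to 0.17 for PYCR1. The PHGDH call was lost on leaving out any 1 library other than vehicle replicate 3 or repeat replicate 1 (adjusted p 0.0574 to 0.189). The PYCR1 call was lost on leaving out any 1 other than vehicle replicate 3, recovery replicate 2, repeat replicate 1 or repeat replicate 3 (adjusted p 0.0846 to 0.151). In the folding arm 0 of 15 differences were called, with 4 positive and 0 negative at an unadjusted p under 0.05 in edgeR and 0 called by DESeq2.

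Levels were compared between genes on the TPM scale, which divides by length. In vehicle libraries the most abundant members by mean were SLC1A5 at 389.8 ± 14.1 TPM (SD, n = 3), HSP90B1 at 293.6 ± 5.81 TPM, PHGDH at 251.1 ± 6.8 TPM and SLC3A2 at 250.5 ± 10.8 TPM, of which PHGDH and SLC3A2 differed by less than their SDs. The ER sensors were low, with ERN1 at 2.48 ± 0.421 TPM, EIF2AK3 at 10.1 ± 0.829 TPM and ATF6 at 28.9 ± 0.719 TPM, while XBP1 was at 72.5 ± 2.03 TPM. DDIT3 and CHAC1 were at 10.8 ± 0.319 and 6.3 ± 0.406 TPM. ATF4 was listed at 2528.0 TPM, 6.91 times its CPM, where the median of the members was 0.521. This ratio implies a very short gene length in the authors' calculation, so ATF4 is left out of the order, and the ATF5 ratio was 3.42.

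Genes of the same pathways outside the 36 members were counted in the same way. Among 25 other targets of ATF4 or of the amino acid response, 16 fell and 3 rose in acute against vehicle libraries, and 12 fell and 4 rose in repeat against recovery libraries. Over all genes 21.5% fell and 22.3% rose in acute against vehicle libraries, and 20.5% fell and 21.1% rose in repeat against recovery libraries. SLC7A11, the cystine importer, changed by -0.73 ± 0.049 and -0.70 ± 0.047 after the first and second pulses. CBS, which condenses serine with homocysteine, changed by -0.64 ± 0.045 and -0.51 ± 0.046. CBS was also lower in recovery than in vehicle libraries (-0.30 ± 0.044, edgeR adjusted p = 2.69e-05) and lower in repeat than in acute libraries (-0.17 ± 0.048, edgeR adjusted p = 0.0366). In recovery against vehicle libraries 5 of the 25 were lower (2.91% of all genes), led by NUPR1, a stress-induced chromatin protein (-0.31 ± 0.060), CBS and JDP2, a repressor related to ATF3 (-0.17 ± 0.046). The other 2 lower, GPT2 and AARS1, and the 1 higher, STC2, are named after their values were seen. WARS1, the tryptophanyl-tRNA synthetase and an interferon-induced gene in its own right, rose by 0.74 ± 0.025 and 0.72 ± 0.025 after the first and second pulses. STC2, a secreted glycoprotein induced by ER stress, was lower in recovery than in acute libraries (-0.51 ± 0.025). It had risen by 0.62 ± 0.025 after the first pulse. Its mean was 617.7 CPM in repeat libraries, against 438.1 CPM in recovery libraries.

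Of 28 other genes of ER folding, export and degradation, 23 rose and 2 fell after the first pulse, and 22 rose and 2 fell after the second, where 22.3% of all genes rose and 21.5% fell after the first and 21.1% rose and 20.5% fell after the second. DNAJB9, a BiP co-chaperone, rose by 0.53 ± 0.062 and 0.54 ± 0.062, SEC24D, a coat subunit of ER export vesicles, by 0.43 ± 0.023 and 0.38 ± 0.023, and CALR, the glycoprotein chaperone calreticulin, by 0.39 ± 0.019 and 0.39 ± 0.019. In recovery against vehicle libraries 1 was called higher, the isomerase TXNDC5 (0.08 ± 0.021), and 1 lower, DERL3, named after its values were seen (-0.59, at the lowest level of the list). SELENOS, an adaptor of ER-associated degradation, was higher in repeat than in vehicle libraries (0.42 ± 0.029). In repeat against acute libraries 1 of the 28 was called higher and 0 lower (1.77% and 2.43% of all genes). The 1 was SELENOS, with 66.2, 67.1 and 66.4 CPM in repeat libraries, against 61.1, 60.2 and 62.6 CPM in acute libraries.

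Of 10 genes that phosphorylate, dephosphorylate, form or recycle eIF2, 6 rose and 0 fell after each pulse. Over all genes 22.3% and 21.1% rose after the first and second. Of the 10, 0 were lower at an unadjusted p under 0.05 in edgeR or called lower by DESeq2. EIF2AK2 encodes PKR, the eIF2 kinase that binds double-stranded RNA and an established interferon-stimulated gene. It had 482.8, 452.0 and 462.3 CPM in repeat libraries, against 135.7, 133.5 and 132.0 CPM in recovery libraries, and 472.6, 484.2 and 474.9 CPM in acute libraries, against 138.6, 136.7 and 128.2 CPM in vehicle libraries. The log2 fold changes were 1.80 ± 0.027 and 1.83 ± 0.027 (edgeR adjusted p = 3.15e-26 and 2.19e-26), larger than that of any member. EIF2B5 and EIF2B4, subunits of the exchange factor that phosphorylated eIF2 blocks, rose by 0.26 ± 0.032 and 0.18 ± 0.039 after the first pulse, and EIF2S1, which encodes the phosphorylated eIF2 subunit, rose by 0.20 ± 0.028 in repeat against vehicle libraries.

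**Figure D5:**
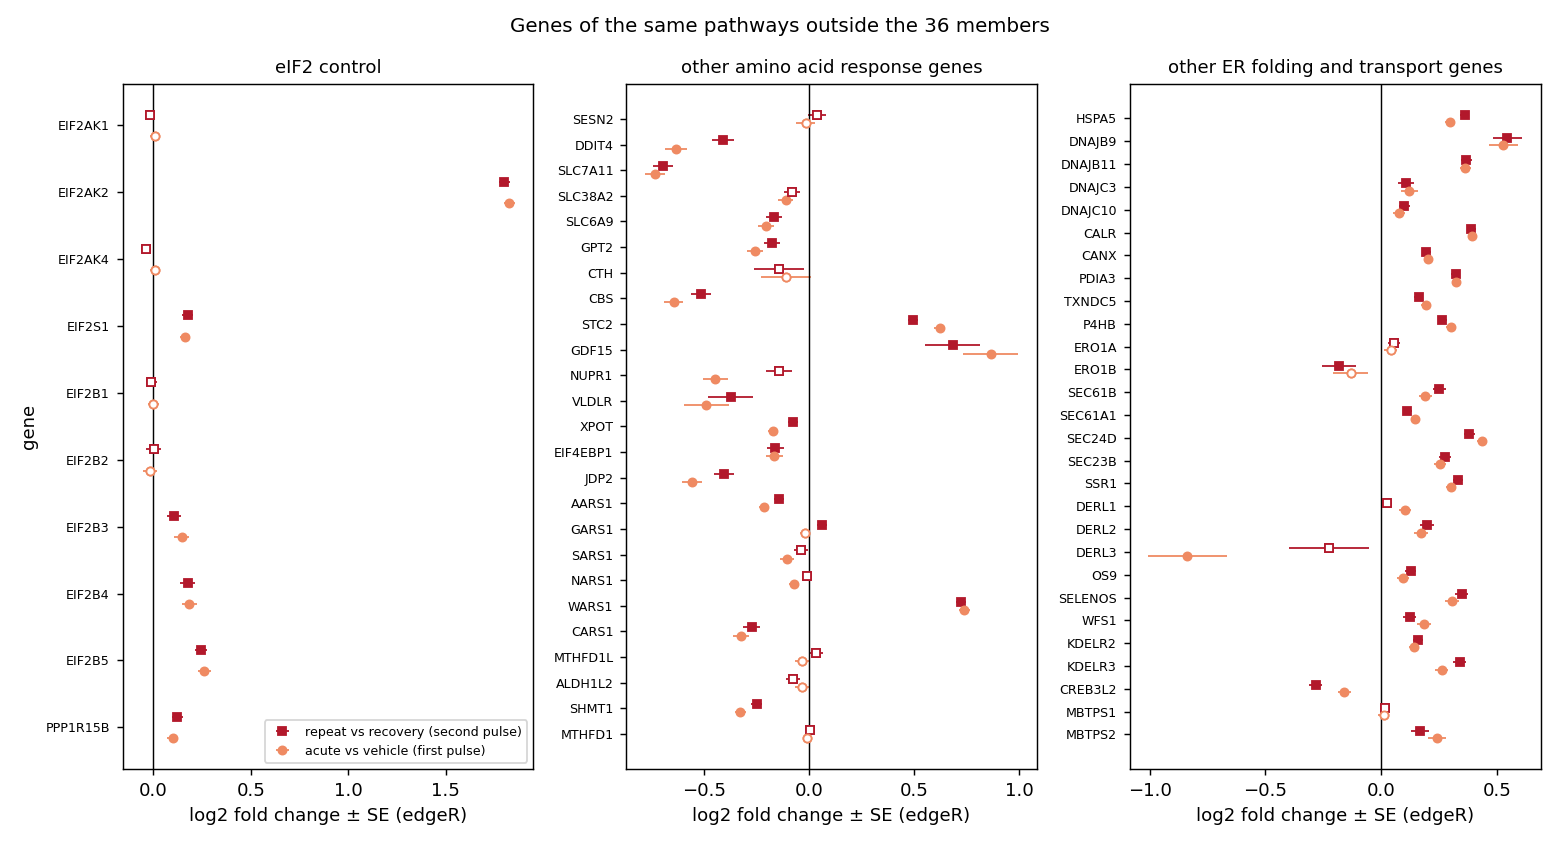
Log2 fold change ± SE from edgeR (x axis, a different range in each panel) of genes outside the 36 members (y axis) for the second pulse (repeat vs recovery, squares) and the first pulse (acute vs vehicle, circles); filled symbols had an adjusted p under 0.05. EIF2AK2 lies near 1.8 after both pulses, most amino acid response genes lie left of 0 and most ER folding and transport genes right of 0.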

How the data were processed

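RNA-seq libraries were poly(A)-selected and stranded, per the labels' protocols. The submitters' processing notes list STAR 2.7.11a and featureCounts 2.0.3 beside Trim Galore 0.6.10, cutadapt 4.3, Picard 2.27.5 and edgeR, with build GRCh38.p13. Neither their roles nor the strand setting of the counting is given in the sources used here, so reads of overlapping or antisense genes cannot be told apart. The authors deposited estimated counts per gene and TPM. Of the nonzero counts 25.49% were not whole, and the length that the ratio of counts to TPM implies for a gene varied between libraries (median coefficient of variation 4.35% over 9015 genes). ATF4, PSAT1, MTHFD2, ASNS, SLC7A5 and HSP90B1 had counts that were not whole in all 12 libraries, so reads may be shared with near-identical copies and their values are uncertain.

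Counts were rounded to whole numbers and fitted in R 4.3.3 with edgeR 4.0.16 (TMM scaling, filterByExpr, robust quasi-likelihood F test, 2-sided, 12 libraries in 1 fit with a mean per group). P-values were adjusted by Benjamini-Hochberg over 18119 genes, with calls under 0.05. CPM are TMM-scaled. Errors are standard errors of the fit, or SDs where stated. The biological coefficient of variation was 2.67%, and replicates differed by 1.77 to 2.99 times Poisson noise. Libraries of 39.9 to 62.3 M counts (M, 1000000) gave members at least 361 counts. Alternatives used other scalings, no filter, DESeq2 1.42.0, limma 3.58.1 on log2(TPM + 1), a gene length offset, the compared groups alone, a replicate block and leaving out each library. Across 18 pairs of same-numbered libraries of different groups, deviations correlated at -0.082 to 0.076. Across the other pairs they correlated at -0.103 to 0.107. These values do not settle whether the numbers pair the libraries. The main fit used no pairing, and the replicate block is among the alternatives. All columns were mapped to samples (0 were not).

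The members, gene lists and tests were chosen with earlier results of these data known. Members described by library are the 8 of the serine and amino acid arm and the 6 of the folding arm with the widest log2 range of group means, plus ATF4, DDIT3, XBP1 and ATF6. From other lists at most 3 called genes per comparison are named, by size of change, at a mean of at least 5 CPM.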

Additional observations from a re-analysis of the deposited data

Results flagged for a closer look

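For PHGDH, the first enzyme of serine synthesis, the response to the second pulse (repeat against recovery) differed from the response to the first (acute against vehicle) by 0.14 on the log2 scale. For PYCR1, the last enzyme of proline synthesis, the same difference was 0.17. Both were picked out because the test of the difference itself gave an adjusted p under 0.05 (0.0467 and 0.0438, edgeR). In both genes the recovery level, from which the second response is measured, was lower than the vehicle level, by 0.11 and 0.15 on the log2 scale. Vehicle libraries carry a 24 h label and recovery libraries were collected later, so these differences cannot be told apart from time in culture. With the gene length offset the differences were 0.17 and 0.10, neither called (adjusted p = 0.398 and 0.859).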

How the results depend on the processing

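The direction of each arm and the calls of PPP1R15A, PHGDH, PSAT1, ALDH18A1, SLC3A2, PDIA4, PDIA6, SDF2L1 and CRELD2 after each pulse were kept under every alternative. The scale with length mattered most. With limma on log2(TPM + 1), members called lower numbered 9 in acute against vehicle libraries (14 from counts). With limma on TPM and with the length offset, members called lower in recovery against vehicle numbered 1 and 1 (12 from counts), higher in repeat against vehicle 11 and 11 (17), higher in recovery against acute 5 and 6 (11), lower in repeat against acute 0 and 0 (2), and with a positive difference between responses 0 and 0 (2). Without the count filter 1 member was lower in repeat against acute, with median-ratio scaling 1 had a positive difference between responses, and with DESeq2 1 had a negative one (0). The cause was not tested.

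Signs turned with limma on TPM and with the offset for ATF5 in repeat against vehicle (0.00 and -0.01), ERN1 in the same comparison (-0.09 and -0.15), EDEM1 in recovery against acute (-0.21 and -0.21), ATF5 in repeat against recovery (-0.38 and -0.40) and ERN1 in repeat against recovery (-0.02 and -0.05). The implied length relative to vehicle was 1.119 in repeat, 0.818 in recovery and 0.887 in acute libraries for ATF5, and 1.344, 1.168 and 1.217 for ERN1.

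Leaving out 1 library at a time gave 4 to 14 members lower in recovery against vehicle, 1 to 3 lower in repeat against acute, 0 to 2 with a positive difference between responses and 0 to 1 with a negative one. The other counts of members stayed within 1.5 times, among them 15 to 17 higher and 14 to 14 lower in acute against vehicle. With replicate number as a block, 16 members were lower in recovery against vehicle (12 without the block) and ERN1 was not called in repeat against recovery. No other call of a member was lost under the block. Of 12 libraries 7 correlated best with one of their own number.

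Counts over all genes with limma on TPM and with the offset were 2532 and 2274 higher (4049 from counts) and 1812 and 2142 lower (3889) in acute against vehicle, and 2199 and 2118 higher (3824) and 1625 and 1853 lower (3722) in repeat against recovery. They were 76 and 107 higher (549) and 42 and 71 lower (527) in recovery against vehicle, 2557 and 2467 higher (4244) and 2094 and 2310 lower (4147) in repeat against vehicle, and 1514 and 1869 higher (3696) and 2322 and 2046 lower (3752) in recovery against acute. In repeat against acute they were 3 and 5 higher (321) and 3 and 5 lower (440), with 514 higher without the filter. For the difference between responses they were 0 and 0 positive (40) and 3 and 11 negative (78), with 67 and 148 by DESeq2 and 137 and 196 without the filter. Leaving out 1 library gave 341 to 578 higher and 283 to 594 lower in recovery against vehicle, 147 to 526 and 166 to 692 in repeat against acute, and 13 to 90 and 40 to 233 for the difference between responses.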

Other observations

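The genes below were picked out after their values were seen. HSPA5 encodes BiP, the main ER chaperone and the repressor of the ER sensors. It had 911.0, 918.7 and 912.0 CPM in repeat libraries, against 722.7, 706.7 and 707.3 CPM in recovery libraries (log2 fold change 0.36 ± 0.019, edgeR adjusted p = 7.47e-15). In the first pulse it had 915.4, 900.6 and 897.5 CPM in acute libraries, against 732.1, 750.2 and 729.5 CPM in vehicle libraries (log2 fold change 0.30 ± 0.019, edgeR adjusted p = 5.43e-13). GDF15, a secreted stress factor, moved against most amino acid response genes. It had 4.51, 4.17 and 3.67 CPM in repeat libraries, against 2.56, 2.62 and 2.52 CPM in recovery libraries, and 4.81, 4.91 and 3.66 CPM in acute libraries, against 2.35, 2.1 and 2.9 CPM in vehicle libraries. Its log2 fold changes were 0.68 ± 0.130 and 0.86 ± 0.131 (edgeR adjusted p = 8.77e-05 and 3.34e-06), without overlap. DDIT4, an inhibitor of mTORC1, moved the other way, with log2 fold changes of -0.41 ± 0.053 and -0.63 ± 0.054 after the second and first pulses (edgeR adjusted p = 4.08e-07 and 1.84e-10).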
